A study of Mus musculus with 8 samples.

Results

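Esr1, Pgr, Prlr, Foxa1, Gata3, Elf5, Cited1, Spdef, Agr2 and Kit are 10 mouse genes that encode hormone receptors, transcription factors and other proteins of the luminal cells of the mammary gland. They were taken by gene name from the non-control rows of the arrays, which gave 16 probes on 26 spots, out of 55681 probes on 59305 spots in all. Their mRNA was followed in sorted cells of MAM326, a mouse mammary cancer cell line, on 8 one-colour Agilent arrays. The GFP-positive group held 4 arrays of MAM326 cells that fluoresced green when sorted 2 days after seeding, and the GFP-negative group held 4 arrays of MAM326 cells that did not. Both groups were grown in the same serum-containing medium, with no drug or hormone treatment in the labels, and each array was made from 20 ng of RNA. The promoter or reporter behind the GFP signal is not named in the labels, and both groups come from a single cell line. The labels name 4 independent experiments at different passages without saying which array belongs to which, so a p-value here measures how far the 8 arrays scatter, which may be partly technical.

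The luminal layer of the mammary gland holds hormone-sensing cells and secretory, alveolar cells. In the hormone-sensing cells oestrogen acts through its receptor, the Esr1 product, which switches on the progesterone receptor gene Pgr, while FOXA1 and GATA3 are transcription factors that open and occupy the DNA sites used by that receptor. Prolactin acts through its receptor PRLR, the kinase JAK2 and the transcription factor STAT5, and ELF5 drives the alveolar branch. CITED1 is a transcriptional co-activator of the hormone-sensing cells, SPDEF an ETS factor of secretory epithelia, AGR2 a disulphide isomerase of the endoplasmic reticulum, and KIT the receptor tyrosine kinase that marks luminal progenitors in the mouse gland.

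The probes are 60 bases long, and their positions below are those of the files on the mouse build mm9. The sequences shown are those on which the account turns. The probes of Esr1 differed in how many arrays they were detected on, as did those of Prlr. The Cited1 probe had the lowest p of the 5 genes that could be tested. The first 30 bases of each are printed 5′ to 3′.
Esr1 probe 1, chr10:5489352-5489411, minus strand: ttattgaccaacctagcagatagggagctg
Esr1 probe 2, chr10:5343056-5343115, minus strand: ttttttgtagacgtttcaaactaccgtgtc
Esr1 probe 3, chr10:5345046-5345105, minus strand: tccccgaaaggttctgagaatccctgcaac
Esr1 probe 4, chr10:5379218-5379277, minus strand: aagatgctgttcaagaaccacaaatggaaa
Prlr probe 1, chr15:10255629-10255688, plus strand: cttgaaagacacaactgtgtggatcattgt
Prlr probe 2, chr15:10259066-10259125, plus strand: caggttaacactacagagtcatgaaggaat
Cited1 probe, chrX:99442776-99442835, minus strand: tgagtttgatttcactgcagattttccctc
Esr1 probes 2 and 3 lie 1990 bases apart and probes 1 and 2 lie 146296 bases apart. The Prlr probes lie 3437 bases apart. The files list 3 RefSeq transcripts for Prlr probe 1 and 1 for Prlr probe 2, and none for Esr1 probe 4. Exons and untranslated regions at these positions were not analysed here.

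Of the 10 genes, 5 were measured in every array and 3 in none. Esr1, Foxa1, Gata3, Cited1 and Spdef had a probe well above background on all 8 arrays, a call made by the scanner software for each spot. Prlr and Elf5 were above background on GFP-negative arrays only, and Pgr, Agr2 and Kit on no array. By probe, 6 of the 16 were well above background on all 8 arrays, 4 on some and 6 on none, where 42.2% of all probes on the array were detected on all 8 and 36.3% on none.

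**Figure D1:**
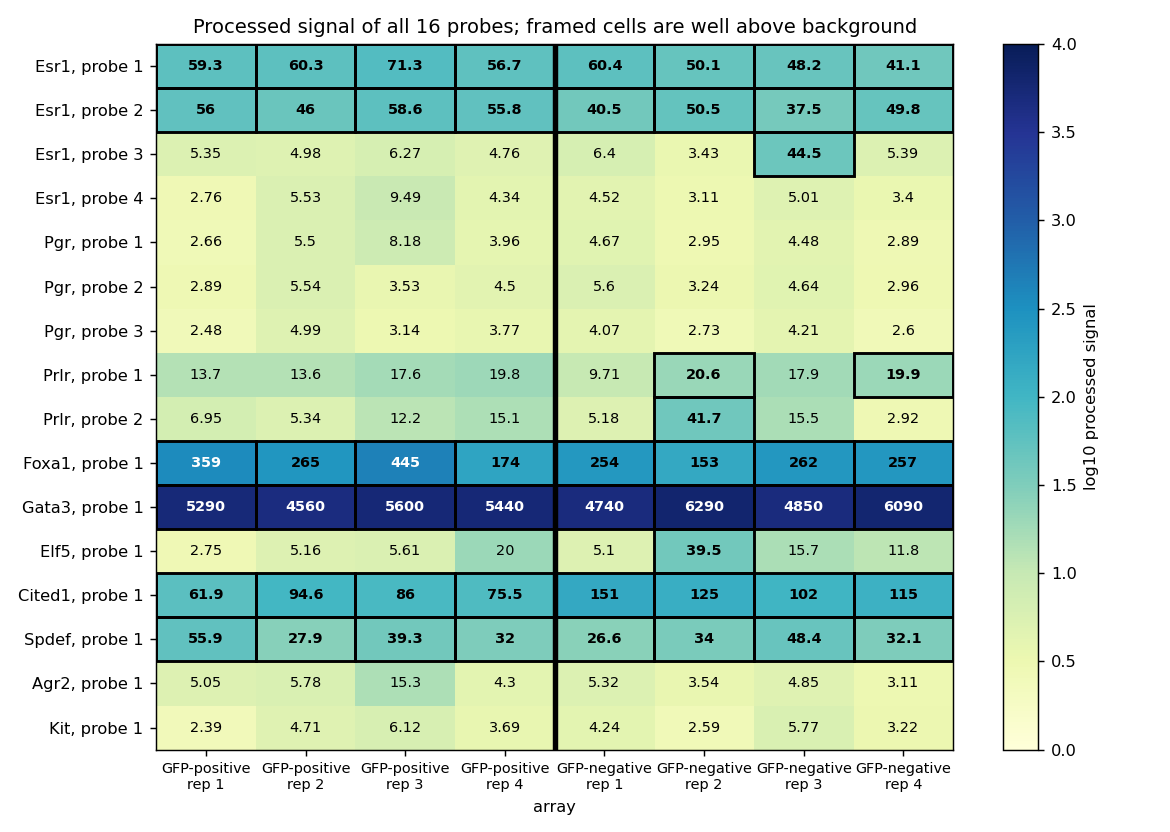
Processed signal of each of the 16 probes (rows) on the 4 GFP-positive and 4 GFP-negative arrays (columns), coloured by log10 of the signal, with frames around values well above background. The 6 fully framed rows are those of Esr1 probes 1 and 2, Foxa1, Gata3, Cited1 and Spdef, and the 5 single frames all lie in the GFP-negative columns.

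Between 45.1% and 57.4% of all probes were well above background per array, with 0 saturated spots. All arrays lay on 1 slide, and each of its 2 rows held 2 arrays of each group. Row 1 held GFP-positive replicates 1 and 3 with GFP-negative replicates 2 and 4, and row 2 the rest. Within a group, a slide row therefore cannot be told apart from a set of replicate numbers or experiments. A difference within a row also sets replicates 1 and 3 against 2 and 4, and GFP group and replicate set cannot be told apart there. Listed markers of other cells were partly present. Of 9 leukocyte markers 5 were tested, and Cd68 and Cd14 (also listed as a luminal progenitor marker) were higher, by 1.00 ± 0.11 and 0.56 ± 0.11 (limma adjusted p = 0.00436 and 0.0498), while the pan-leukocyte Ptprc was detected on 1 array. The mean level of the 5 was 1.65 to 1.84 in GFP-positive cells, against 1.21 to 1.52 in GFP-negative cells. Of 9 luminal progenitor markers 6 were tested, with Cd14 past the threshold and 3 at an unadjusted p under 0.05 in limma. All 6 differences were positive, with a median of 0.59 and the smallest at 0.01. The mean level of the 6 was 0.31 to 0.54 in GFP-positive cells, against -0.28 to 0.19 in GFP-negative cells, without overlap. Beside the calls in both lists, 1.82% of all features were higher at an adjusted p under 0.05 in limma. At an unadjusted p under 0.05, 7.83% of all features were higher. Single features were higher without overlap in 5.07% of cases, a share that does not apply to a mean of 6 markers. Positive differences also prevailed among luminal cell markers (9 positive, 1 negative, median 0.47), but this differed by slide row. Within row 1 their differences ran from 0.26 to 2.01. Within row 2 only Cldn3 and Cldn4 were positive, at 0.23 and 0.31, and the others lay between -0.30 and -0.11. Basal and myoepithelial markers gave 10 positive and 0 negative differences, with a median of 0.1 and the smallest at 0.00. Within each slide row both signs occurred among them, from -0.65 to 1.84 in row 1 and from -0.36 to 1.03 in row 2. Markers of fibroblasts and mesenchymal cells, 9 of 10 tested, went the other way (2 positive, 7 negative, median -1.21), with 0 past the threshold. Of these, 1 was lower at an unadjusted p under 0.05 in limma, as were 15.1% of all features. Within slide row 2 only Dcn was negative, at -1.63, and the others lay between 0.19 and 0.94. Of 7 markers of mast cells, which also carry Kit, 1 was tested. The part of these cell types in the values below was not tested.

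Levels below are log2 processed signals relative to the 75th percentile of each array, which is set to 0, and are compared only within a probe. A gene entered the test when a probe was well above background on at least 4 arrays, and its brightest such probe stood for it. That left 5 of the 10 genes among 19710 features. At an adjusted p under 0.05 in limma (Benjamini-Hochberg over all features), 0 of the 5 genes were higher and 0 lower in GFP-positive cells. Of all features 2.56% passed (505 features), 1.82% higher and 0.741% lower. An unadjusted p under 0.05 was reached by 1 of the 5, Cited1, which was lower in GFP-positive cells. Such a p was found for 23% of all features, 7.83% higher and 15.1% lower. The median difference of the 5 genes was 0.08 on the log2 scale, with 3 positive and 2 negative, and that of all features was -0.062.

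Esr1 is the gene with the most probes here, and 2 of its 4 were measured on every array. Probe 1 had levels of -3.17, -2.86, -3.09 and -3.11 in the 4 GFP-positive arrays, against -3.04, -3.45, -3.26 and -3.56 in the 4 GFP-negative arrays. Its groups overlapped, since GFP-negative replicate 1 was above 3 of the 4 GFP-positive arrays. The means were -3.05 ± 0.14 in GFP-positive cells and -3.33 ± 0.23 in GFP-negative cells (SD, n = 4 each). The difference of 0.27 ± 0.13 (SE) did not pass, with an adjusted p of 0.245 in limma and a 95% interval of -0.02 to 0.57, or 1.21-fold with an interval of 0.985 to 1.48. In bulk RNA of this kind, more cells with a transcript and more transcript per cell cannot be told apart.

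Esr1 probe 2 was printed at 10 spots of each array, which makes it the member measured most often. Its array means were -3.25, -3.25, -3.37 and -3.13 in GFP-positive cells, against -3.62, -3.44, -3.62 and -3.28 in GFP-negative cells. GFP-negative replicate 4 lay above GFP-positive replicate 3, and otherwise the GFP-positive arrays were the higher. The means were -3.25 ± 0.10 in GFP-positive cells and -3.49 ± 0.16 in GFP-negative cells (SD, n = 4 each). In the limma fit of all 27591 probes kept, where 2% were called, the difference was 0.24 ± 0.10 (SE). Its unadjusted p was 0.0441 and its adjusted p 0.219, with a 1.18-fold ratio and a 95% interval of 1.01 to 1.39. An unadjusted p under 0.05 was found for 21.7% of the kept probes. The difference was 0.07 with normexp background correction, 0.12 with median scaling and 0.18 with quantile normalization. With normexp, that of probe 1 was 0.1. Over 20 other settings the difference of probe 2 kept its sign and did not pass.

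The repeated spots show how finely this transcript was read. All 80 spots of Esr1 probe 2 were well above background, and the software had marked 3 of them as outliers or non-uniform, which were left out. Spots of one array had an SD of 0.19 on average, between 0.11 on GFP-positive replicate 4 and 0.27 on GFP-negative replicate 1. After averaging 9 or 10 spots, the array means had an SD of 0.10 in GFP-positive cells and of 0.16 in GFP-negative cells. The standard error of an array's mean from its own spots was 0.04 to 0.08.

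**Figure D2:**
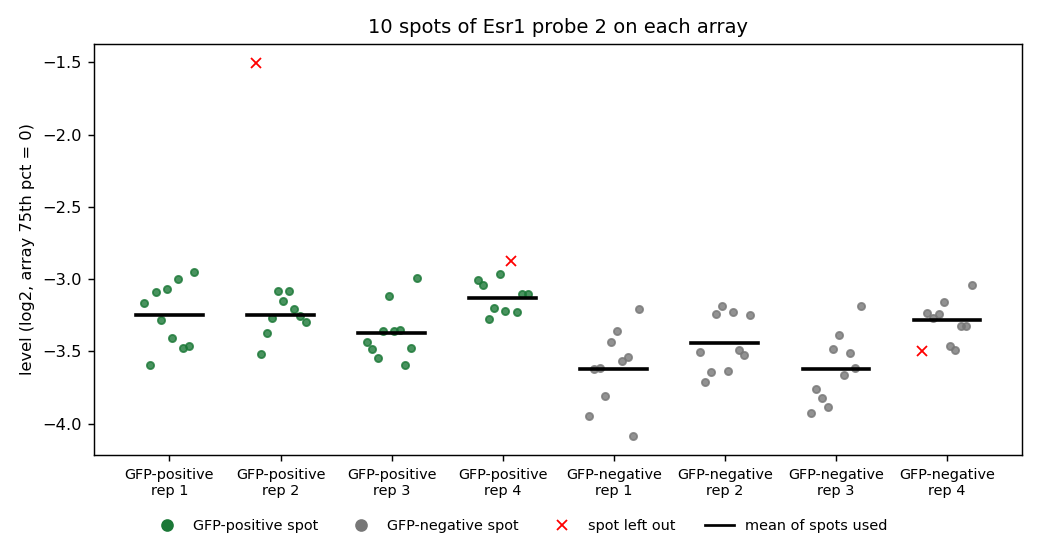
Level of each spot of Esr1 probe 2 (log2, with the 75th percentile of the array at 0) on the 4 GFP-positive arrays and then the 4 GFP-negative arrays, with a line at the mean of the spots used and crosses for the 3 spots left out. GFP-positive means lie between -3.37 and -3.13 and GFP-negative means between -3.62 and -3.28, with the spots of different arrays overlapping.

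Both probes pointed the same way, but they did not follow each other from array to array. Their levels had a Pearson r of 0.11 over the 8 arrays, given as a description. Within slide row 1, which holds 2 arrays of each group, probe 1 differed by 0.38 and probe 2 by 0.05, and within row 2 probe 1 differed by 0.17 and probe 2 by 0.43. Kept probes of one gene with unlike signs were found in 27.1% of the 5552 genes that had several.

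The other Esr1 probes were near background. Probe 3 gave a signal of 5.35, 4.98, 6.27 and 4.76 in GFP-positive cells, against 6.4, 3.43, 44.5 and 5.39 in GFP-negative cells, and only the 44.5 of GFP-negative replicate 3 was well above background. That array was not high in probe 2, which lies 1990 bases away and read 37.5 there, the lowest of its 8 array signals. Probe 4 was above background on 0 of 8 arrays, with signals of 2.76 to 9.49.

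Pgr, whose product is the progesterone receptor and whose transcription depends on oestrogen receptor in the gland, was not well above background with any of its 3 probes, at chr9:8961434-8961493, chr9:8946947-8947006 and chr9:8968492-8968551 on the plus strand. Their signals over the 8 arrays lay between 2.48 and 8.18, and the dimmest signal of any probe called well above background was 7.83 to 18.3, depending on the array. No fold change is given for Pgr.

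Prlr, the prolactin receptor, was close to the detection limit in both groups. Probe 1 gave signals of 13.7, 13.6, 17.6 and 19.8 in GFP-positive cells, none of them well above background, against 9.71, 20.6, 17.9 and 19.9 in GFP-negative cells, of which replicates 2 and 4 were. The groups overlapped, with GFP-positive replicate 4 beside the detected values. The mean levels were -5.00 ± 0.28 in GFP-positive cells and -4.93 ± 0.50 in GFP-negative cells (SD, n = 4 each). No fold change is given, since most of these readings were not well above background.

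Prlr probe 2 was well above background on GFP-negative replicate 2 alone, at a signal of 41.7. Its other signals were 6.95, 5.34, 12.2 and 15.1 in GFP-positive cells, against 5.18, 15.5 and 2.92 in GFP-negative cells. Neither Prlr probe was tested, since each was detected on fewer than 4 arrays.

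Foxa1, the pioneer factor of oestrogen receptor sites, was measured at chr12:58641764-58641823 on the minus strand. Its levels were -0.57, -0.72, -0.45 and -1.48 in GFP-positive cells, against -0.97, -1.84, -0.82 and -0.91 in GFP-negative cells. In each group 3 arrays lay together and 1 lay well below, GFP-positive replicate 4 and GFP-negative replicate 2. The means were -0.81 ± 0.47 in GFP-positive cells and -1.13 ± 0.47 in GFP-negative cells (SD, n = 4 each), and the difference of 0.33 ± 0.29 did not pass (limma adjusted p = 0.543). Its 95% interval of -0.35 to 1.0 is the widest of the probes tested, and the difference changed sign between slide rows, at 0.87 in row 1 and -0.21 in row 2.

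The same 2 arrays had the highest mean level of mesenchymal markers in their groups, over 9 of 10 genes listed as markers of fibroblasts and mesenchymal cells. The mean level of these markers was 1.03, 1.73, -0.16 and 2.36 in GFP-positive cells, against 1.25, 3.19, 2.34 and 2.67 in GFP-negative cells. The mean of 10 of 11 luminal cell markers, all of them well above background on every array, was 4.95, 4.61, 4.94 and 4.35 in GFP-positive cells, against 4.58, 3.85, 4.63 and 3.85 in GFP-negative cells. The part of either in the Foxa1 levels was not tested.

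Gata3, the zinc finger factor that maintains luminal identity, was measured at chr2:9779551-9779610 on the minus strand. Its levels were 3.31, 3.38, 3.21 and 3.48 in GFP-positive cells, against 3.25, 3.52, 3.39 and 3.65 in GFP-negative cells. The groups interleaved, with GFP-positive replicate 3 lowest and GFP-negative replicate 4 highest. With means of 3.35 ± 0.11 in GFP-positive cells and 3.45 ± 0.17 in GFP-negative cells (SD, n = 4 each), the difference was -0.11 ± 0.11 (limma adjusted p = 0.577). The ratio was 0.927 with a 95% interval of 0.783 to 1.1. Row 1 gave -0.33 and row 2 gave 0.11.

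Elf5, the ETS factor of the alveolar branch, was well above background on GFP-negative replicate 2 alone, at chr2:103290958-103291017 on the plus strand. Its signals were 2.75, 5.16, 5.61 and 20.0 in GFP-positive cells, against 5.10, 39.5, 15.7 and 11.8 in GFP-negative cells. The groups overlapped, and GFP-positive replicate 4 was the second brightest of the 8. The mean levels were -6.34 ± 1.26 in GFP-positive cells and -5.16 ± 1.17 in GFP-negative cells (SD, n = 4 each), and no fold change is given.

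Elf5 and Prlr probe 2 were thus detected on the same single array. On GFP-negative replicate 2, 256 probes or 0.46% of all were detected and on no other array. The 10 probes of the set that were not detected everywhere gave 0 detections in 40 readings of GFP-positive arrays and 5 in 40 readings of GFP-negative arrays. Counted by probe, 4 of the 16 were detected on GFP-negative arrays only and 0 on GFP-positive arrays only. Over the whole array the balance of probes ran the other way, with 8.13% detected on GFP-positive arrays only and 2.89% on GFP-negative arrays only. GFP-positive replicate 3 alone accounted for 2507 probes (4.5%).

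Cited1, the co-activator of hormone-sensing cells, stood nearest to the threshold of the 5 genes tested. Its levels at chrX:99442776-99442835 were -3.11, -2.21, -2.82 and -2.69 in GFP-positive cells, against -1.72, -2.13, -2.18 and -2.08 in GFP-negative cells. The groups did not overlap, but only just, with -2.21 in GFP-positive replicate 2 against -2.18 in GFP-negative replicate 3. Groups did not overlap in 16.7% of all features, with GFP-positive cells lower in 11.6% and higher in 5.07%. The means were -2.71 ± 0.38 in GFP-positive cells and -2.03 ± 0.21 in GFP-negative cells (SD, n = 4 each).

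The Cited1 difference of -0.68 ± 0.19 had an unadjusted p of 0.00812 and an adjusted p of 0.0987 in limma, rank 1621 among the features, and did not pass. Its ratio was 0.624 with a 95% interval of 0.457 to 0.852. It differed by -0.86 within slide row 1 and by -0.50 within row 2, where the sign is fixed by groups that do not overlap. Over 20 other settings it kept its sign and its adjusted p ran between 0.0451 and 0.511. It passed only without GFP-positive replicate 2, at -0.85.

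Spdef, an ETS factor of secretory epithelia, gave levels of -3.25, -3.97, -3.95 and -3.93 in GFP-positive cells, against -4.22, -4.01, -3.26 and -3.92 in GFP-negative cells, at chr17:27851401-27851460 on the minus strand. In each group a single array stood above the rest, GFP-positive replicate 1 and GFP-negative replicate 3. The means were -3.78 ± 0.35 in GFP-positive cells and -3.85 ± 0.42 in GFP-negative cells (SD, n = 4 each). The difference of 0.08 ± 0.24 did not pass (limma adjusted p = 0.884), its 95% interval was -0.48 to 0.63, and its sign changed under quantile normalization (-0.03) and median scaling (-0.05).

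Agr2 and Kit had no reading well above background. Agr2, at chr12:36730506-36730565 on the plus strand, gave signals of 5.05, 5.78, 15.3 and 4.30 in GFP-positive cells, against 5.32, 3.54, 4.85 and 3.11 in GFP-negative cells. The 15.3 of GFP-positive replicate 3 was the highest of the 8. That array had the most probes well above background, 31970 against 25112 on GFP-positive replicate 2, the fewest. Kit, printed at 2 spots at chr5:76052394-76052453 on the plus strand, gave signals of 2.39 to 6.12.

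**Figure D3:**
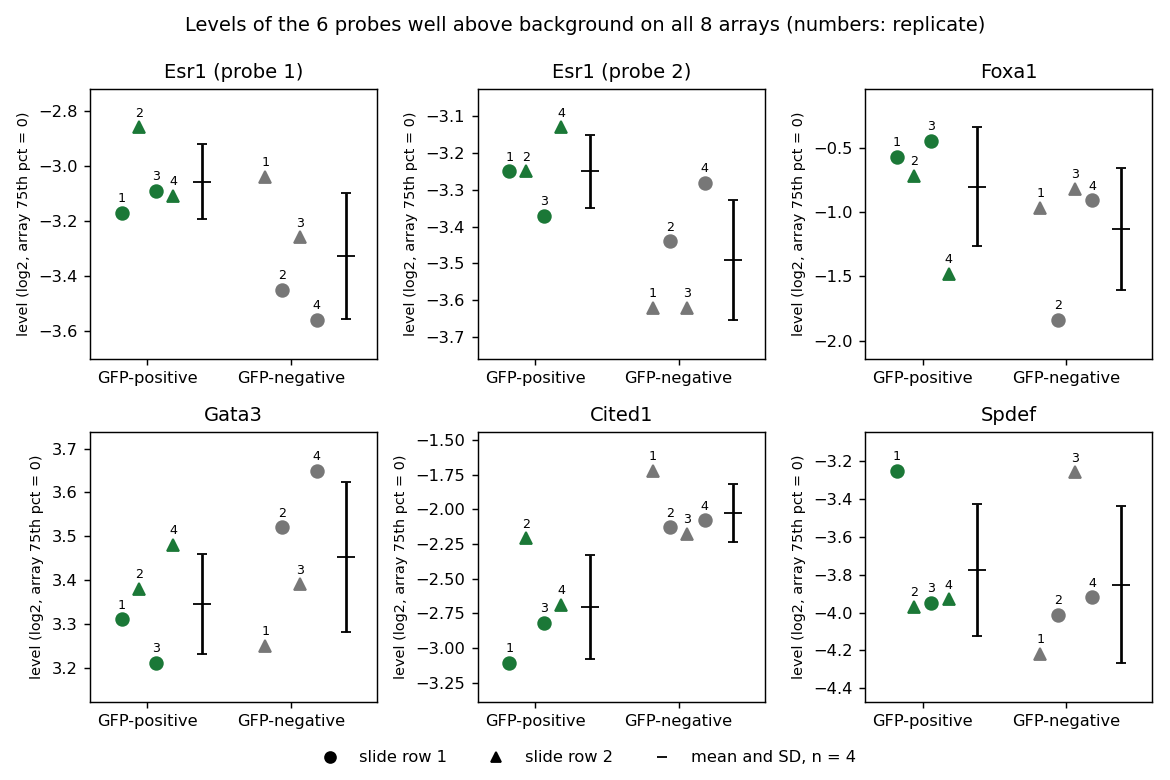
Level (log2, with the 75th percentile of the array at 0) of the 6 probes measured on all 8 arrays, GFP-positive (green) left of GFP-negative (grey) in each panel, with slide row by symbol, the replicate number above each point, and the mean and SD of 4 arrays beside it. Axes differ between panels. The Cited1 groups are the only pair that does not overlap, and Foxa1 has 1 low array in each group.

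**Figure D4:**
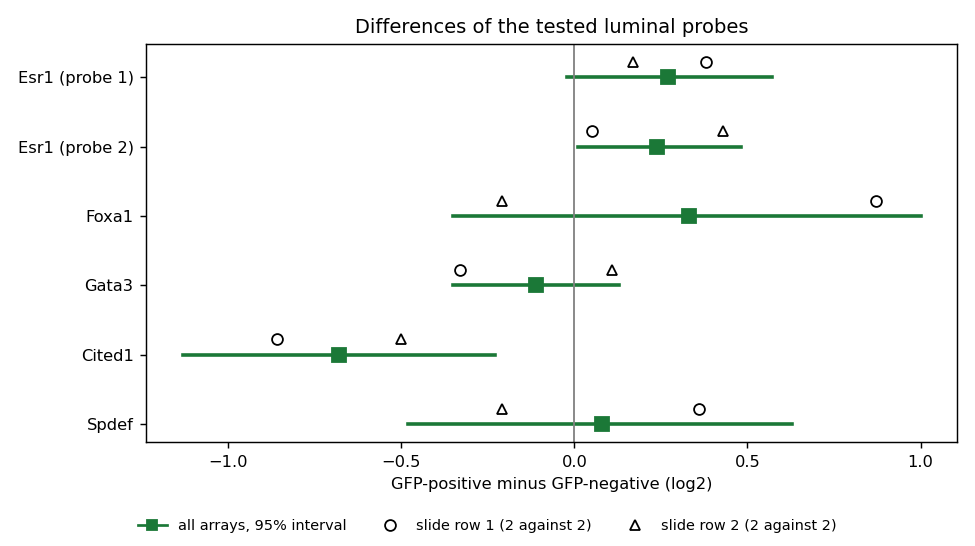
Difference GFP-positive minus GFP-negative (log2) of the same probes, with squares and bars for the limma estimate and its 95% interval from all 8 arrays, and open symbols for the difference within each slide row. Foxa1, Gata3 and Spdef take opposite signs in the 2 rows, and Esr1 and Cited1 keep theirs. The Cited1 sign is fixed by groups that do not overlap.

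The levels of the members measured everywhere did not run together. Among the 15 pairs of these 6 probes, Pearson r over the 8 arrays was -0.71 for Esr1 probe 1 with Gata3, -0.60 for Esr1 probe 2 with Cited1 and -0.57 for Foxa1 with Gata3, and the highest was 0.39, for Esr1 probe 1 with Foxa1. These are descriptions over 8 arrays that share 1 slide and 2 sorted fractions. The features most like each probe over the arrays were Ccno and Nr5a1 for Foxa1 (r = 0.983 and 0.976) and Pepd and Boc for Gata3 (0.979 and 0.977). For Cited1 they were Eno1 and BC085271 (0.981 and 0.976), and for Spdef they were Ovgp1 and Rhbdl1 (0.972 and 0.970). Esr1 probe 2 was most like Arhgef17 (0.971) and a feature with no gene symbol (0.969), and Esr1 probe 1 was most like 2 features without one (0.960 and 0.952). Each is the highest or second highest r over all features, and none of these features passed the threshold between the groups.

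Among 130 other genes of the receptors' pathways and the luminal lineage, in 8 lists, 104 were tested and 2 passed, both higher in GFP-positive cells. That is 1.92% of them, beside 2.56% of all features, and their median difference was -0.02. The genes that passed were Cish and Wnt4. Beside the genes the naming rule takes from each list, Jak2, Stat5a, Stat5b, Greb1, Areg, Fkbp5, Esr2, Hey1, Btn1a1, Mfge8 and Kitl are given below and were picked after their values were seen.

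**Figure D5:**
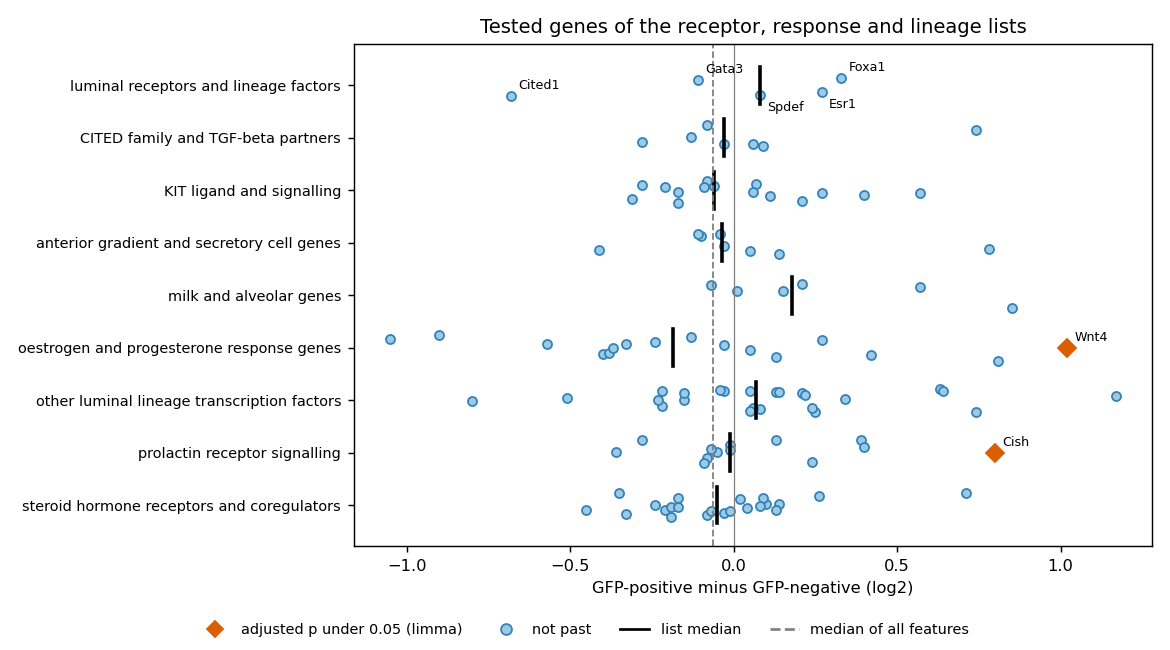
Difference GFP-positive minus GFP-negative (log2) of each tested gene (points) in the luminal set and 8 related lists, with diamonds for genes past an adjusted p of 0.05 in limma, short bars for list medians and a dashed line at the median of all features. Cish and Wnt4 are the diamonds, and list medians lie between -0.19 and 0.18.

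Of the prolactin receptor signalling list all 13 genes were tested, 1 rose and 0 fell. Cish encodes a suppressor of cytokine signalling that prolactin and STAT5 induce. Its levels were -1.07, -1.31, -1.15 and -1.16 in GFP-positive cells, against -1.90, -1.96, -1.81 and -2.23 in GFP-negative cells, with a clear gap between the groups. Groups did not overlap, with GFP-positive cells higher, in 5.07% of all features. Cish rose by 0.80 ± 0.11, or 1.74-fold (limma adjusted p = 0.00974). It measured 0.98 among the arrays of slide row 1 and 0.62 among those of row 2. The sign of both was fixed by groups that did not overlap. Of 20 other settings, those where Cish did not pass were the median in place of the 75th percentile (0.68, limma adjusted p = 0.0791), a replicate block (0.053) and row 2 alone (0.376). With no filter its adjusted p rounded to 0.05, and 1 gene of this list still passed there. The receptor's kinase Jak2 differed by 0.39 ± 0.08 and did not pass (adjusted p = 0.0514), and its target factors Stat5a and Stat5b differed by -0.01 and -0.07. The median of the list was -0.01.

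Genes that respond to oestrogen and progesterone showed 1 rise and 0 falls among 16 of 22 tested, with a median of -0.19. Wnt4, the paracrine signal that progesterone induces in luminal cells, had levels of 1.36, 1.24, 1.92 and 1.02 in GFP-positive cells, against 0.45, 0.47, 0.35 and 0.19 in GFP-negative cells. It rose by 1.02 ± 0.18 (limma adjusted p = 0.0346), with 1.31 among the arrays of slide row 1 and 0.73 among those of row 2. The sign in each row was fixed by groups that did not overlap. The call was lost without each of 6 of the 8 arrays, the 4 GFP-negative ones and GFP-positive replicates 1 and 2, with an adjusted p of up to 0.115. In all it was lost in 11 of 20 other settings, also with no filter (0.126), a replicate block (0.0804) and slide row as a block (0.0522), and within row 1 (0.0594) and row 2 (0.367). Greb1, a direct oestrogen target, differed by 0.13 ± 0.11 and Areg, an oestrogen-induced growth factor of the gland, by 0.81 ± 0.34, and neither passed (adjusted p = 0.508 and 0.204). Fkbp5, a chaperone gene that progesterone induces, was next to the threshold at -0.40 ± 0.10 (adjusted p = 0.0718), and 10 of the 16 differences were negative.

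Other steroid receptors and their coregulators gave 0 rises and 0 falls among 22 of 23 tested (limma). Unadjusted p values under 0.05 were found for 1 positive and 5 negative differences, beside 7.83% and 15.1% of all features. The smallest adjusted p values were those of Kdm1a, a histone demethylase, at -0.24 ± 0.06 (0.0746), and Esrra, an orphan receptor related to oestrogen receptors, at 0.71 ± 0.19 (0.081). Esr2, the second oestrogen receptor gene, differed by 0.08 ± 0.15 and did not pass (adjusted p = 0.807).

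The other luminal transcription factors had 0 calls among 24 of 29 tested (limma), with a median of 0.07. Unadjusted p values under 0.05 were found for 4 positive and 1 negative differences, beside 7.83% and 15.1% of all features. Msx2, a homeobox factor, had the smallest adjusted p, 0.0619, at 0.63 ± 0.15, and Grhl1, a grainyhead factor of epithelia, followed at 0.74 ± 0.21 (0.103). Hey1, a Notch target and the 1 negative difference at an unadjusted p under 0.05, stood at -0.80 ± 0.31 (adjusted p = 0.176). None of these passed, and 15 of the 24 differences were positive and 9 negative.

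Milk and alveolar genes, the downstream products of the prolactin and ELF5 axis, were seen in part. Of 16 genes, 8 were well above background on no array, among them the caseins Csn1s1, Csn1s2a, Csn1s2b and Csn2 and the whey protein gene Wap. The 6 genes tested gave 0 calls in limma (1 higher at an unadjusted p under 0.05, as were 7.83% of all features). Csn3 was at 0.85 ± 0.35 (adjusted p = 0.204) and Lalba at 0.15 ± 0.07 (0.248). Others were well above background on all 8 arrays, among them Mfge8, a milk fat globule protein gene, at 7.62 ± 0.29 in GFP-positive cells and 7.62 ± 0.23 in GFP-negative cells (SD, n = 4 each). Btn1a1, which encodes the butyrophilin of milk fat droplets, was at 5.36 ± 0.05 in GFP-positive cells and 5.43 ± 0.05 in GFP-negative cells (SD, n = 4 each).

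The lists around Agr2, Kit and Cited1 held 0 calls in limma. Of the anterior gradient and secretory genes 8 of 14 were tested, with 0 at an unadjusted p under 0.05, and the Agr2 paralogue Agr3 and the trefoil genes Tff1 and Tff2 were detected on no array. Pdia2 differed by 0.78 (adjusted p = 0.439) and Txndc5 by -0.10 (0.571), both protein disulphide isomerases. The KIT list had 15 of 16 genes tested, and 1 positive and 1 negative difference reached an unadjusted p under 0.05, as did 23% of all features. The kinase Src differed by 0.40 (adjusted p = 0.0804), the kinase subunit Pik3r1 by -0.28 (0.200), and the ligand gene Kitl by 0.07 ± 0.09.

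The CITED list had all 7 genes tested. Unadjusted p values under 0.05 in limma were found for 1 positive and 1 negative difference, beside 23% of all features. Cited4, the paralogue of Cited1, had levels of -2.02, -2.22, -2.05 and -2.51 in GFP-positive cells, against -3.11, -2.69, -2.78 and -3.18 in GFP-negative cells. Its groups did not overlap, as was found in 5.07% of all features with GFP-positive cells higher. The Cited4 difference of 0.74 ± 0.15 stood just outside the threshold (limma adjusted p = 0.0504), opposite in sign to that of Cited1. Hif1a, the hypoxia factor that competes with CITED2 for the coactivators CBP and p300, differed by -0.28 (adjusted p = 0.165).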

How the data were processed

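The sources were 8 scanner files, 1 per array, from Agilent Feature Extraction (named in the submitters' processing notes), version 10.7.3.1 and protocol GE1_107_Sep09 per the file headers. The deposited intensity values used were the processed signal, background-corrected by that program, and for 1 alternative the mean signal and median local background, and the deposited values had not been scaled between arrays. Later steps by the authors are not recorded in the labels.

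Flagged spots (106 to 186 per array) were left out. Log2 processed signal was set relative to each array's 75th percentile and averaged over spots of a probe. A probe was detected when at least 0.5 of its spots were well above background, and 27591 probes detected on at least 4 arrays were kept. Groups and replicate numbers came from the labels. The difference of GFP-positive from GFP-negative arrays was tested in limma 3.58.1 (lmFit, eBayes, two-sided, no replicate block) under R 4.3.3 and the data.table package (version 1.17.8), with Benjamini-Hochberg adjustment. The arrays' number limits precision. Accessions of 27509 probes (49.4%) matched RefSeq genes of GRCm38.p6, used for symbols only, and all members were matched by the files' own gene names.

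The members and lists were chosen with earlier results of these data known. Named genes were all members with every probe, up to 4 genes past the threshold from each list or, where none passed, the 2 with the smallest adjusted p, and the 2 features most like each member measured on all arrays. Alternatives changed the background correction, scaling, filter, probe choice, blocks, variance model and array weights, and left out each array.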

Additional observations from a re-analysis of the deposited data

Results flagged for a closer look

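Among 32 sets of 4 array levels of the member probes, 3 held a value farther from its neighbours than Dixon's 95% limit for 4 values (a gap of 0.829 of the range). About 1 in 20 such sets would be marked by chance. Spdef in GFP-positive replicate 1 was at -3.25, with the nearest GFP-positive array at -3.93 (gap 0.953 of the range). Foxa1 in GFP-negative replicate 2 was at -1.84, with the nearest GFP-negative array at -0.97 (0.851). Prlr probe 1 in GFP-negative replicate 1 was at -5.68, with the nearest at -4.73 (0.883), and that reading was not well above background. No explanation of these values was tested.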

How the results depend on the processing

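The number of features past the threshold, 505, depended on the setting. It was 788 with normexp background correction, 203 with median scaling, 154 with no filter on dim probes, 278 with slide row as a block, 1166 with an intensity trend and robust prior and 1494 with array weights. Within slide row 1 it was 1053, and within row 2 it was 0 in limma, with 2146 at an unadjusted p under 0.05. GFP group and replicate set cannot be told apart within a row. Leaving out 1 array at a time gave 151 to 428. Calls among the 10 genes stayed at 0 except without GFP-positive replicate 2, where Cited1 passed, so the range over arrays left out was 0 to 1, and calls among their probes were 0 in each of 20 alternatives. The 2 calls in the other lists became 5 with normexp and with detection required on all 8 arrays, 9 with the intensity trend, 10 with array weights and within row 1, 1 with median scaling, with no filter and with slide row as a block, and 0 within row 2 (17 at an unadjusted p under 0.05, limma), and were 1 to 3 with an array left out. Higher and lower calls split 359 to 146 in the fit reported, 182 to 21 with median scaling, 337 to 82 with quantile normalization, 425 to 363 with normexp, 537 to 629 with the intensity trend and 692 to 802 with array weights. Median scaling moved the median of all features to -0.184, against -0.062.

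Replicate numbers were tried as a block. The replicate block gave 215 features, 0 member calls and 0 list calls. Arrays of the same number did not deviate together (correlations of -0.03, 0.07, 0.02 and 0.18). That gave no sign that the numbers pair the samples, but cannot show that they do not, and the labels leave it open. Each GFP-negative array correlated best with a GFP-positive array of another number (0.34 to 0.65), and no such pairing was fitted. Differences that changed sign were those of Spdef (-0.03 with quantile normalization, -0.05 with median scaling, -0.21 within row 2, and -0.10 to 0.27 with an array left out, negative without GFP-positive replicate 1 or GFP-negative replicate 1), Foxa1 (-0.21 within row 2), Gata3 (0.11 within row 2) and Txndc5 (0.08 within row 2). The cause of these changes was not tested. Signal over background limits the readings of Esr1 probes 3 and 4, Pgr, Prlr, Elf5, Agr2 and Kit.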
